A study of Homo sapiens with 6 samples.

Results

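The potassium channel genes were described in 3 control messenger RNA libraries of SH-SY5Y, a long-established cell line from a human neuroblastoma. The genes were taken by symbol, as every entry of the count table named KCN followed by 1 or more letters and a closing number. This gave 95 genes in 20 lettered subfamilies, out of 60709 genes with values. All 95 are protein-coding in GENCODE release 29.

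The study treated SH-SY5Y cells for 5 h with a fumarate joined to an Nrf2 peptide. The labels list 3 control samples (DMSO) and 3 samples with the peptide-linked fumarate in water plus DMSO. Wells held 2 mL of medium and reached 80% confluence, and each well of both groups received 10 uL of DMSO. Treated wells also received 200 uL of a solution of 2 mg peptide in 600 uL water, and the labels mention no matching water in the controls. All wells are of 1 cell line, and whether the replicates were separate cultures on separate days is not given in the sources used here. Of the numbered count columns, 3 carry the label numbers of the controls, and no column carries a label number of the treated samples. Samples with the peptide were therefore not analysed here, and no treatment difference is reported. The name control rests on the column numbers alone: had the columns been numbered afresh, the 3 libraries could be the treated ones.

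Potassium channels are membrane proteins that let potassium leave or enter the cell along its gradient and so set the resting voltage and end action potentials. Voltage-gated members open on depolarization, inward rectifiers and two-pore channels act near rest, and other members open on intracellular calcium or sodium. Auxiliary subunits change the traffic and gating of the pore-forming proteins. Neuroblastoma lines are known for the hERG current of KCNH2 and for the M-current of KCNQ subunits, which restrains repetitive firing.

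The libraries held 10683037, 11397407 and 8887854 counts in control replicates 1, 2 and 3. At an equal level, a raw count is therefore lower in replicate 3. Control replicate 3 stood apart from the other libraries along the GC content of transcripts, by 0.24 on the log2(CPM + 1) scale in the tenth of abundant genes of lowest GC and by -0.22 in the tenth of highest GC (CPM, counts per 1000000 of the scaled library total). The labelled cell type was checked on 14 markers of sympathoadrenal neuroblastoma, of which 13 had at least 10 counts in every library. HAND2, a sympathoadrenal transcription factor, had a mean of 914 CPM and DBH, a catecholamine enzyme, 799 CPM. TH, the first enzyme of catecholamine synthesis, had 0 counts in all 3 libraries. Of 7 markers of the mesenchymal neuroblastoma state, 6 reached 10 counts in every library and PRRX1 had 0 counts. Of 5 fibroblast markers 4 did, with COL3A1 at 316 CPM, LUM at 14.6, COL1A1 at 14.4 and DCN at 5.21 CPM. COL1A2 had 1, 3 and 2 counts. The summed level of the list ranged from 333 to 373 CPM, most of it from COL3A1. None of 4 immune, 3 endothelial or 4 muscle markers reached that minimum, and 1 of 4 epithelial (EPCAM) and 1 of 4 glial markers (S100B) did. The part of any other cell type in the levels below was not tested. Fewer cells of a type and less RNA per cell cannot be told apart in these bulk libraries.

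Fewer than 1 in 2 potassium channel genes were detected, with detected meaning 10 or more counts in each of the 3 libraries. This was the case for 39 of the 95 genes, or 41.1%. The share was 22.9% over all genes and 62.3% over nuclear protein-coding genes. A further 35 genes had some counts but fewer than 10 in at least 1 library, with no single count above 28. The remaining 21 of the 95 had 0 counts in all 3 libraries. This share is close to the 19.5% of protein-coding genes and below the 53.6% of all genes. The upper limit behind a 0 is 3 counts, equal to 0.281, 0.263 and 0.338 CPM in control replicates 1, 2 and 3. Without replicate 3, the library with the fewest counts, 44 genes would count as detected. The median gene of the family had 0.725 CPM and the median protein-coding gene 10.2 CPM. These limits cover counting error only.

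**Figure D1:**
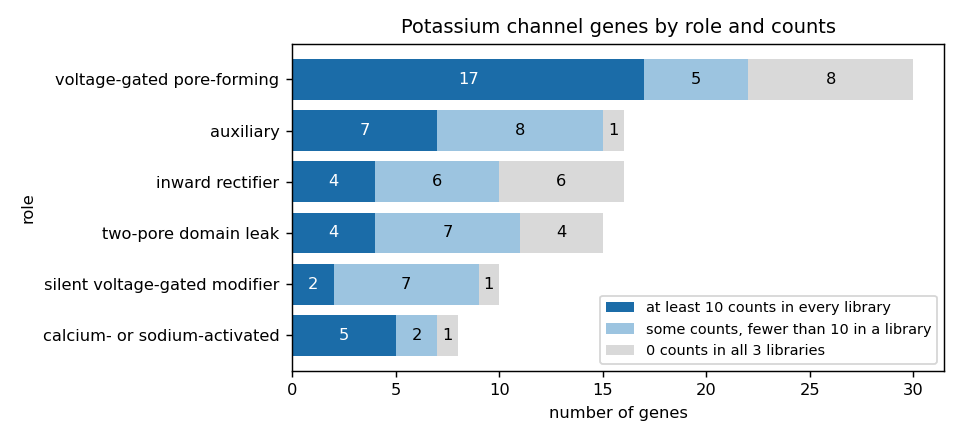
Number of potassium channel genes (horizontal axis) in each role, divided by their counts in the 3 control libraries. Voltage-gated pore-forming genes are the largest role with 17 of 30 detected, and 4 of 16 inward rectifiers and 4 of 15 two-pore genes are. The detected share was 62.3% over nuclear protein-coding genes and 22.9% over all genes.

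Calcium- or sodium-activated channels had 5 of 8 genes detected, voltage-gated pore-forming channels 17 of 30, and auxiliary subunits 7 of 16. Inward rectifiers had 4 of 16, two-pore leak channels 4 of 15 and the silent modifiers, which form no working channel alone, 2 of 10. Beside these stand the detected shares of 62.3% of nuclear protein-coding genes and 22.9% of all genes, and whether roles depart from them was not tested. Subfamilies with no detected gene were KCNE, KCNF, KCNS, KCNU and KCNV. The voltage-gated genes with 0 counts in every library were KCNA1, KCNA4, KCNA5, KCNA10, KCNB2, KCNC2, KCND2 and KCNH5. Inward rectifiers at 0 counts were KCNJ1, KCNJ6, KCNJ13, KCNJ15, KCNJ16 and KCNJ18, and two-pore genes at 0 were KCNK2, KCNK16, KCNK17 and KCNK18. KCNE2, KCNU1 and KCNV1 completed the 21. KCNJ12 and KCNJ18 are near-identical copies whose reads could be split or dropped, so the 2, 4 and 2 counts of KCNJ12 and the 0 counts of KCNJ18 are uncertain.

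The DNA just before the RefSeq gene starts, a feature that the gene rule did not use, held more CG dinucleotides in the median detected member than in the median of those with few or 0 counts, with wide overlap and no test. The 250 bases upstream of the 5'-most RefSeq start (GRCh38.p14) were available for 71 of the 95 genes and were searched for the dinucleotide CG (CpG), which reads the same on both strands. The sequences of KCNH2, the highest member, of KCNJ2 and its neighbour KCNJ16, and of KCNA4 are shown because they span the range from a detected gene with many CpG to an undetected gene with few, and include an exception. Capitals mark each CG.
KCNH2: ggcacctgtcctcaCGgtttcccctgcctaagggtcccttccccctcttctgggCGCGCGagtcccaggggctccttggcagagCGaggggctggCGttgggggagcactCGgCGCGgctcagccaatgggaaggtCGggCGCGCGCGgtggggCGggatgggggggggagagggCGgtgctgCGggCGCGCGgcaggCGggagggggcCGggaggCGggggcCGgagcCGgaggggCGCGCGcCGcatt
KCNJ2: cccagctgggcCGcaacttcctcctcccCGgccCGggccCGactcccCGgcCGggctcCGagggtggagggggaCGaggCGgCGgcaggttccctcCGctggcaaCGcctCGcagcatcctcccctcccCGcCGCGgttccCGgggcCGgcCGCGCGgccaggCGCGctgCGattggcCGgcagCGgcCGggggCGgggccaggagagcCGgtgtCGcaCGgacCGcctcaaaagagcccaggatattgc
KCNJ16: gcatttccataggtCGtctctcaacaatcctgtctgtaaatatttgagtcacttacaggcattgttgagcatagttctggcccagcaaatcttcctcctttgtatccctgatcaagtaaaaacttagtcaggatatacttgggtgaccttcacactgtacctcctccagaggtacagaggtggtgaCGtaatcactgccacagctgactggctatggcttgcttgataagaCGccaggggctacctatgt
KCNA4: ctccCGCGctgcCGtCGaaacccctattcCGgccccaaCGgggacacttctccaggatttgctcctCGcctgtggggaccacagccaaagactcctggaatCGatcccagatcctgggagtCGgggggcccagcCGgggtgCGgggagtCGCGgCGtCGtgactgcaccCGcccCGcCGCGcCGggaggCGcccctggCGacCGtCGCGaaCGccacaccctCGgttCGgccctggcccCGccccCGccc
The windows lie at chr7:150978322-150978571, minus strand (KCNH2), at chr17:70169282-70169531, plus strand (KCNJ2), at chr17:70074975-70075224, plus strand (KCNJ16) and at chr11:30017031-30017280, minus strand (KCNA4). The windows of KCNJ2 and KCNJ16 lie inside the gene spans of GENCODE release 29, which start further upstream, so they precede the RefSeq start and not the first GENCODE start. The 4 windows hold 29, 32, 3 and 30 CG, in the order printed. KCNH2 and KCNJ2 were detected, and KCNJ16 had 0 counts. KCNA4 is the exception shown, since its window is as rich in CG as that of KCNH2 and its counts were 0 in every library.

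The median window held 26 CG among the 29 detected members with a window, 14 among the 25 with some counts and 6 among the 17 with 0 counts. A window was called CpG-rich at 50% or more G and C and a ratio of observed to expected CG of at least 0.6. This held for 20 of the 29 detected members (69.0%), 10 of the 25 with some counts (40.0%) and 3 of the 17 with 0 counts (17.6%). The 3 members with 0 counts and a CpG-rich window were KCNA4, KCNH5 and KCNJ6. The same order was found over protein-coding genes in general, at 78.3%, 35.2% and 19.4% of the windows in the corresponding classes, so it is not particular to channel genes. CpG-rich windows made up 61.0% of the 15300 protein-coding windows and 46.5% of the 71 member windows. A detected gene can also have few CG, as for KCNA2 with 2, KCNAB1 with 4 and KCNJ14 with 5. Which start the cells use was not measured, and genes such as KCNH2, with 5 windows in the RefSeq table, have several. The first 30 bases after the start were found in a GENCODE transcript of the gene for 50 of the 71, and not for KCNH2, KCNJ2 or KCNA4.

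**Figure D2:**
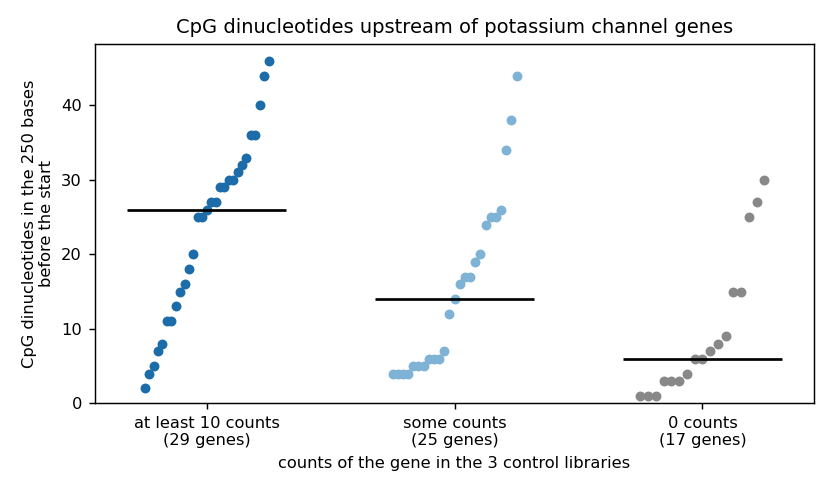
CpG dinucleotides in the 250 bases before the 5'-most RefSeq start (vertical axis) for 71 potassium channel genes, grouped by their counts in the 3 control libraries. Each point is a gene, spread sideways in order of its value, and each line is the median: 26, 14 and 6 from left to right, with wide overlap of the groups.

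Several potassium channel genes lie beside each other on a chromosome. Pairs of neighbouring members less than 250 kb apart numbered 13 and involved 22 genes (GENCODE release 29, GRCh38). Both genes were detected in 1 pair, KCNA2 and KCNA3, 1 gene was detected in 5 pairs and neither in 7. Over all 95 members the detected share was 41.1%, and whether neighbours depart from it was not tested. In 1 pair, KCNIP1 and KCNMB1, the second gene lies within the span of the first. KCNJ2 at chr17:70168673-70180048 had a mean of 14.5 CPM, while KCNJ16 at chr17:70053429-70135608, on the same strand, had 0 counts. KCNK5 at chr6:39188973-39229450 had 15, 28 and 24 counts, while the neighbouring KCNK17 and KCNK16 had 0.

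The transcripts of the family were dominated by 1 gene. Levels of different genes were compared as CPM per kb of exon in GENCODE release 29. KCNH2 held 43.6%, 43.7% and 45.1% of the summed level of all 95 genes in control replicates 1 to 3, on average 44.1 ± 0.847% (SD, n = 3). The 15 highest genes held 83.5 ± 1.05%. The summed CPM of the family was 937, 902 and 874 in the 3 libraries, a mean of 904 ± 31.9. The voltage-gated pore-forming role as a whole held 68.4 ± 0.548% of the summed level per kb, inward rectifiers 8.18 ± 0.517%, auxiliary subunits 7.97 ± 0.279%, calcium- or sodium-activated channels 7.57 ± 0.289%, two-pore channels 6.21 ± 0.205% and silent modifiers 1.64 ± 0.115%.

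**Figure D3:**
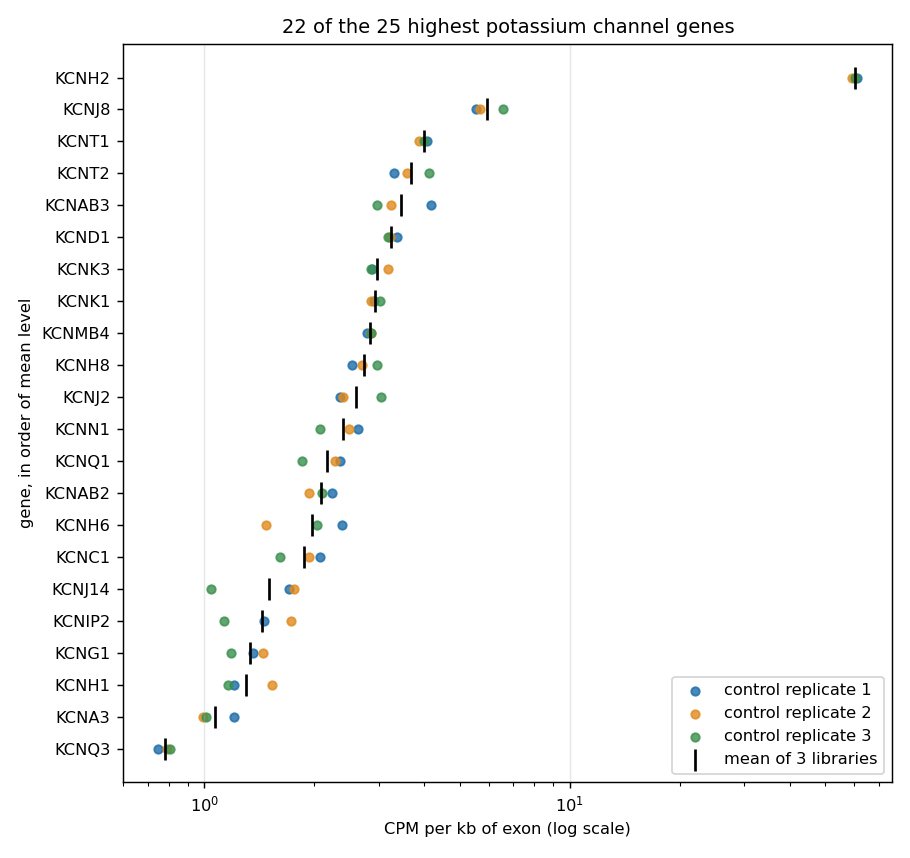
Level of 22 of the 25 highest potassium channel genes in CPM per kb of exon (horizontal log axis), with a point for each of the 3 control libraries and a bar at their mean. KCNH2 lies near 60.2, apart from all other genes drawn, and KCNJ8 near 5.92.

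KCNH2 (ENSG00000055118.16, chr7:150944961-150978315, minus strand, GRCh38) encodes the hERG channel, which carries a delayed rectifier current in heart and in many tumour lines. It had 3850, 3974 and 3133 counts, or 360, 348 and 354 CPM, a mean of 354 ± 6.13 CPM (SD, n = 3). The libraries differed by at most 1.04 times, and the coefficient of variation of 1.73% was near the counting error of 1.65%. At 60.2 ± 1.04 CPM per kb, KCNH2 was above 97.4% of the 19883 nuclear protein-coding genes. The median of the detected protein-coding genes was 7.08 CPM per kb, and that of the detected potassium channel genes 1.44.

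The other KCNH genes were low beside KCNH2, which made up 89.1% of its subfamily's summed level. KCNH8, an Elk-type channel, had 15.6, 16.5 and 18.2 CPM, which is 2.73 ± 0.211 CPM per kb. KCNH6, a close relative of hERG, had 10.0, 6.21 and 8.58 CPM and 1.96 ± 0.455 CPM per kb, highest in replicate 1. Its level per kb was 0.0325 ± 0.00702 of that of KCNH2. KCNH1, the Eag channel studied in tumours, had 11.8, 15.1 and 11.4 CPM and 1.30 ± 0.204 CPM per kb, with replicate 2 above the others. KCNH4 had 34, 29 and 13 counts, and KCNH7 19, 19 and 10. KCNH3, with 28, 24 and 8 counts, missed the minimum in replicate 3 only, and KCNH5 had 0 counts.

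KCNQ subunits form the M-channel as mixed tetramers, among them KCNQ3 with KCNQ5. The subfamily's summed level was 15.6 ± 1.59 CPM per kb, or 11.4% of the family. KCNQ3 had 9.44, 9.98 and 10.2 CPM, which is 0.780 ± 0.0295 CPM per kb and nearly level across the libraries. KCNQ5 was measured at 0.483 ± 0.0560 CPM per kb. KCNQ1, which pairs with KCNE1 in heart, had 10.5, 10.2 and 8.24 CPM and 2.16 ± 0.271 CPM per kb, although KCNE1 had 1, 1 and 0 counts.

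Among the remaining voltage-gated subfamilies, the A-type channel gene KCND1 was the highest, with 19.5, 18.6 and 18.4 CPM and 3.25 ± 0.103 CPM per kb. It made up 99.4% of its subfamily, since KCND2 had 0 counts and KCND3 2, 2 and 1. Of the KCNC subfamily, known from fast-spiking neurons, KCNC1 had 29.8, 27.8 and 23.1 CPM, lowest in replicate 3, and 1.87 ± 0.238 CPM per kb. With the longest transcript as the length it had 3.38 CPM per kb. KCNC4 had 0.243 ± 0.0231 CPM per kb and KCNC2 0 counts. The Shaker-type KCNA subfamily was low throughout, with KCNA3 at 1.07 ± 0.117 CPM per kb and KCNA2 at 0.155 ± 0.0290.

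**Figure D4:**
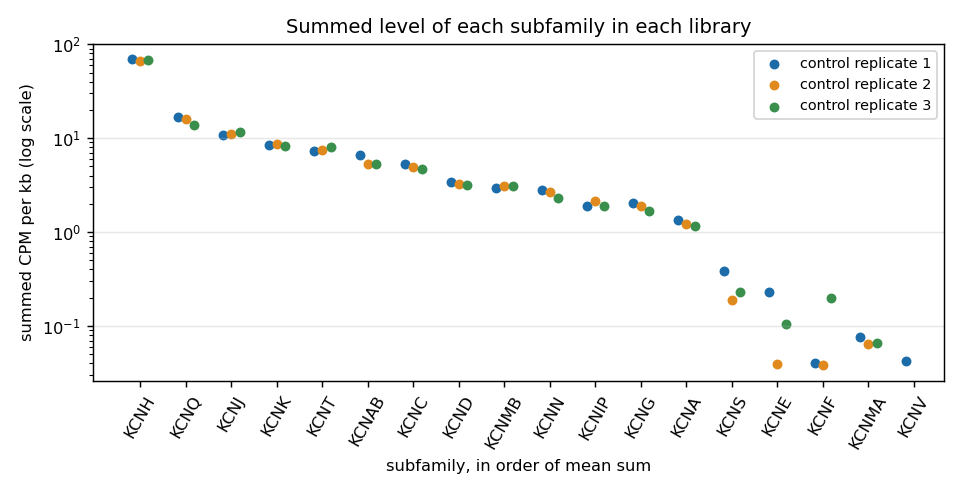
Summed level of each subfamily in CPM per kb of exon (vertical log axis) in each of the 3 control libraries. The KCNH sum is near 67.6 and the KCNQ sum near 15.6. Of the 20 subfamilies, KCNU, which had 0 counts, and KCNB are not drawn, nor are libraries with a sum of 0 (KCNV in replicates 2 and 3).

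Sodium-activated channels were the leading ion-activated members. KCNT1 (Slack) had 49.7, 47.2 and 48.7 CPM and KCNT2 (Slick) 23.4, 25.5 and 29.2 CPM. Per kb these were 3.98 ± 0.103 and 3.67 ± 0.419, and the ratio of KCNT1 to KCNT2 was 1.24, 1.08 and 0.970 in replicates 1, 2 and 3. Per kb of exon the libraries of these 2 genes overlapped and their order reversed in replicate 3. They could not be ranked by that measure. In CPM, which takes no account of length, KCNT1 was higher in every library. Their longest transcripts hold 60.6% (KCNT1) and 35.4% (KCNT2) GC, and the ratios were not corrected for the GC trend of replicate 3. With the longest transcript as the length, KCNT1 had 6.87 and KCNT2 4.27 CPM per kb. KCNN1, a small-conductance calcium-activated channel gene, had 10.5, 9.89 and 8.24 CPM and 2.40 ± 0.290 CPM per kb. KCNN3 had 18, 19 and 24 counts. KCNMA1, the pore of the large-conductance BK channel, had 29, 26 and 21 counts, or 2.45 ± 0.229 CPM.

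Inward rectifiers were led by KCNJ8, the pore of an ATP-sensitive channel. It had 147, 161 and 144 counts, or 13.7, 14.1 and 16.3 CPM, and was the highest inward rectifier per kb, at 5.92 ± 0.549. Its place rests on a short exon length of 2484 bases, and in CPM it ranked 12 of the 95 genes. KCNJ11, the pore gene of the pancreatic ATP-sensitive channel, had 10, 10 and 4 counts. The sulfonylurea receptors that these pores need were also low, with ABCC8 at 70, 61 and 36 counts and ABCC9 at 10, 6 and 12. KCNJ2, a classical strong inward rectifier, had 13.1, 13.4 and 16.9 CPM and 2.60 ± 0.384 CPM per kb, with replicate 3 above the others. KCNJ14 had 7.39, 7.61 and 4.52 CPM and shares 350 exon bases with GRWD1 on the same strand, which had 830, 938 and 583 counts. How reads shared by overlapping genes were counted, and whether strand was used, is not given in the sources used here. The same limit applies to all 36 of the 95 members whose exons overlap another gene, and so also to low or 0 counts of undetected ones. Of the 39 detected members, 15 have such an overlap. Among them are KCNAB2, which overlaps NPHP4, and KCNH7, which shares 189 exon bases with GCA (158, 198 and 199 counts), both on the opposite strand. Of the G-protein-gated channel genes, KCNJ9 had 29, 34 and 17 counts and KCNJ3 7, 14 and 9. KCNJ5 had 0, 2 and 1 counts and KCNJ6 had 0.

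Two-pore leak channels were led by KCNK3 and KCNK1. KCNK3, an acid-sensitive background channel of the TASK type, had 17.9, 19.8 and 17.7 CPM and 2.97 ± 0.184 CPM per kb. KCNK1, of the TWIK type, had 10.6, 10.3 and 11.0 CPM and 2.93 ± 0.0873 CPM per kb. The ratio of KCNK3 to KCNK1 per kb was 1.01 ± 0.0902, and the libraries overlapped. This rests on the length used, since with the longest transcript KCNK1, at 4.91 CPM per kb, ranked 6 and KCNK3 ranked 13 among the 95 genes. KCNK6 had 38, 33 and 25 counts and KCNK5 15, 28 and 24. KCNK9, a further TASK-type gene, had 28, 25 and 7 counts and so fell below the minimum in replicate 3 alone. It and KCNH3 were chosen after their values were seen.

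Some auxiliary subunit genes had higher levels than the pore genes they are known to join. KCNAB3 and KCNAB2, cytoplasmic partners of KCNA channels, had 3.46 ± 0.630 and 2.09 ± 0.145 CPM per kb, each above KCNA3, the highest KCNA gene. KCNAB3 had 19.1, 14.9 and 13.6 CPM, highest in replicate 1, and KCNAB2 had 227, 211 and 177 counts, highest in CPM in replicate 1. KCNMB4, the neuronal partner of the BK channel, had 13.6, 13.9 and 13.9 CPM and 2.83 ± 0.0407 CPM per kb. It exceeded KCNMA1 by 36.6, 44.7 and 42.8 times per kb in the 3 libraries. In CPM, where the 35644 exon bases of KCNMA1 do not enter, KCNMB4 had 13.8 ± 0.198 and KCNMA1 2.45 ± 0.229. With the longest transcript as the length they had 2.91 and 0.203 CPM per kb. KCNIP2, a calcium-binding partner of KCND channels, had 4.96, 5.86 and 3.84 CPM and 1.44 ± 0.298 CPM per kb, and KCND1 was 2.32 ± 0.473 times higher. The KCNE genes, single-span subunits of KCNQ1 and hERG channels, had at most 3 counts each in any library. The silent modifier KCNG1 had 7.39, 7.88 and 6.44 CPM and 1.33 ± 0.135 CPM per kb.

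The order of the 39 detected genes is firm only in places. Of the 38 pairs of neighbours in the order per kb, 7 had library ranges that did not overlap. KCNH2 stood clear of all others, and KCNJ8 was above KCNT1 by 1.49 times. From KCNT1 to KCNA3 no neighbour stood clear of the next. With the longest transcript as the length, KCNT1 at 6.87 and KCNAB3 at 6.44 CPM per kb passed KCNJ8 at 6.15, while KCNH2 at 82.6 kept the first place.

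The departure of control replicate 3 with GC content, measured over 10290 abundant nuclear genes, also ran through the potassium channel genes. Detected potassium channel genes had a median GC of 54.0%, against 48.3% for detected protein-coding genes. Of the 25 members that averaged 50 counts or more, 14 were lower in replicate 3, or 56.0%, against 52.0% of all such nuclear genes. The members' share was thus near the background. In log2(CPM + 1), replicate 3 of KCNT2, at 35.4% GC, differed from the mean of the others by 0.25, and after removal of the trend by 0.00. KCNH2, at 66.8% GC, differed by -0.00, and removal of the trend moved it to 0.27. The evenness of KCNH2 across libraries therefore held on the CPM scale and not after that correction, under which its highest library was 1.21 times its lowest.

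**Figure D5:**
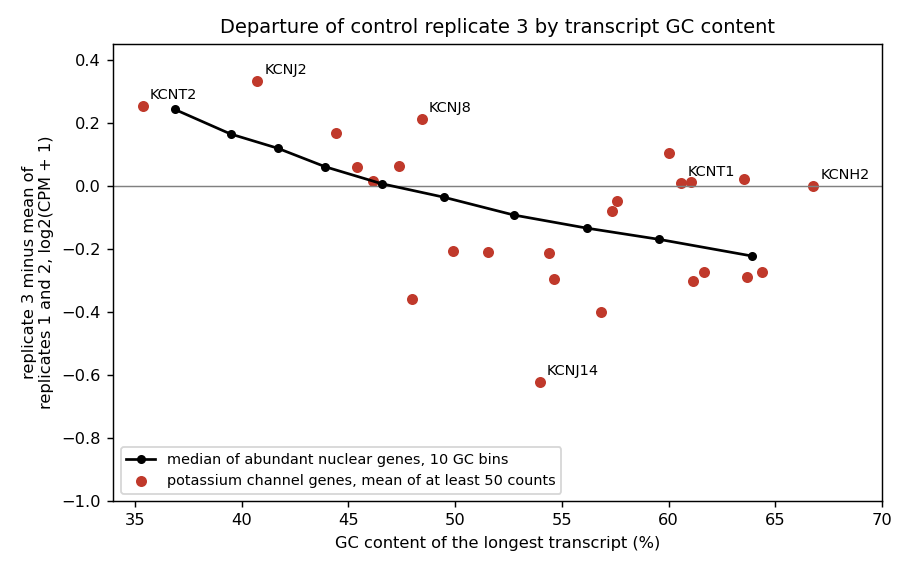
Difference of control replicate 3 from the mean of replicates 1 and 2 in log2(CPM + 1) (vertical axis) against the GC content of the longest transcript (horizontal axis). Black points are medians of abundant nuclear genes in 10 GC bins, from 0.24 to -0.22, and red points are the 25 potassium channel genes that averaged 50 counts or more, with KCNH2 at -0.00 and KCNJ14 lowest at -0.62.

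The spread of the members between libraries was set beside that of other genes of like count. For the 22 members with a mean of 50 to 500 counts the median coefficient of variation was 10.8%, against 9.33% for 6277 other nuclear genes, and their median counting errors were 8.38% and 6.87%. With the GC trend removed the values were 7.06% and 7.46%. For the 3 members above 500 counts the median was 2.58%, against 6.17% for 5224 other genes, and with the trend removed the order turned, at 8.12% and 4.05%. Over all detected members the median was 12.1%, and 6.30% without control replicate 3. The second value rests on fewer libraries and on the 44 members detected in them, so it is not strictly comparable with the first. Leaving out replicate 1 gave 10.1% and leaving out replicate 2 gave 12.3%. Among the largest ratios of highest to lowest CPM, in members that averaged 50 counts or more, were 1.69 for KCNJ14, 1.61 for KCNH6, 1.53 for KCNIP2 and 1.41 for KCNAB3. Replicate 3 was lowest for 3 of these genes and replicate 2 for KCNH6. With the trend removed, the ratio of KCNJ14 was 1.59 and that of KCNH6 1.56.

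Other genes of potassium handling were read from lists that do not depend on the KCN symbol. Of 22 partner genes, 17 reached 10 counts in every library, and the list's median was 12.4 CPM. CALM2 and CALM3, which encode calmodulin, were among the highest per kb, at 142 ± 18.9 and 83.6 ± 6.96 CPM per kb. LRRC38 and LRRC52, auxiliary genes of the BK channel, had 0 counts, LRRC26 had 0, 0 and 1, and LRRC55 had 11, 9 and 3. REST, a repressor of many neuronal channel genes, had 606, 635 and 540 counts, or 57.7 ± 2.86 CPM; it was named after its value was seen. DPP6 and DPP10, partners of KCND channels, had 54, 52 and 30 and 43, 62 and 43 counts, and were also chosen after their values were seen. Of 20 pump and cotransporter genes, 11 reached the minimum, with a list median of 6.33 CPM. Of the sodium pump's beta subunits, ATP1B1 had 61.1 ± 1.66 and ATP1B3 33.4 ± 2.66 CPM per kb. FXYD1, FXYD7, ATP4A and ATP12A had 0 counts, and ATP1A4, FXYD2, FXYD5 and SLC12A1 had at most 7. Of the HCN channels, which carry potassium and sodium on hyperpolarization, HCN3 had 8.03 ± 1.25 and HCN2 6.95 ± 0.845 CPM per kb, and HCN4 had 7, 7 and 1 counts.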

How the data were processed

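Messenger RNA was sequenced from SH-SY5Y cells. The authors deposited 1 table of raw counts, keyed by Ensembl gene. The submitters' processing notes list fastp 0.21.1, STAR 2.7.7a, featureCounts and GRCh38; the annotation release, the strand setting and the treatment of shared reads are not given in the sources used here. Of 6 count columns, 3 matched control samples by number and 3 matched no label and were not used, so the planned test of peptide against control was not run. Left out were 1 gene entry without values and 2 lines naming no gene.

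Symbols matched 60436 of 60709 genes. Counts were scaled to CPM with TMM factors (edgeR 4.0.16, R 4.3.3), and divided by the length of all exons in GENCODE release 29. Tables were made with Python 3.11.15, numpy 2.4.6 and pandas 2.3.3. The GC trend was the median deviation in 50 bins over genes that averaged 100 counts or more and had 10 in each library. The spread, GC and share calculations were tested on simulated data. Totals of 8887854 to 11397407 counts set the precision.

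The members and lists were chosen with earlier results of these data known. Some genes that the naming rule takes are not reported here. Named members were the 15 highest per kb, the highest of each subfamily with a detected gene, the 5 with the largest ratio between libraries at a mean of 50 or more counts, those with 0 counts in every library and, from the partner lists, the 3 highest and the undetected. Other members and other genes, the ratios between genes, the printed sequences and the upstream comparison were chosen after values were seen. Alternatives were RLE factors, library size alone, mitochondrial genes left out, other count minimums, other lengths, removal of the GC trend, and leaving out each library.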

Additional observations from a re-analysis of the deposited data

How the results depend on the processing

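No paired analysis was possible because only the control samples had matched columns. For the same reason the other settings for peptide against control (DESeq2, other normalization, no filter, replicate block, each replicate left out) were not run. The number of detected members, 39, became 46 with 5 counts asked for in each library and 58 with 1, and went from 39 to 44 when a library was left out. The summed CPM of 904 was 949 with mitochondrial genes left out, which raises every other gene by construction, and went from 888 to 920 when a library was left out. The median member, 0.640 CPM as a mean over libraries, was 9.38 CPM over detected members only, since the low ones are then gone. The KCNH share of 49.5% was 44.0% in CPM without a length and 50.6% over detected members, and 49.7% with the longest transcript. The median coefficient of variation of detected members, 12.1%, was 6.30% without control replicate 3 and at most 12.3% when another replicate was left out. Values with a library left out rest on fewer libraries and on the members detected in those. With the GC trend removed it was 10.3%. Of 132 values of named members under alternatives, 5 moved by more than the SD between libraries, each with mitochondrial genes left out. Leaving out 1 of 3 libraries cannot move a mean by more than their SD. The 66 of these 132 values that left out a library therefore could not count as moved. Of 114 values of the other subfamily shares, 30 moved by more than that SD, of which 14 used CPM without a length and 10 the longest transcript. Here 57 of the 114 left out a library and had the same limit. KCNQ moved from 11.4% to 19.5% in CPM. Of the 15 highest genes per kb, 13 were shared with the order by longest transcript and 12 with that by CPM. Depth limits the members below 10 counts, for which levels and ratios are not reliable.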

Other observations

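The table also held 28 entries whose symbols begin with KCN but fall outside the gene rule, mostly antisense and intronic transcripts of channel loci. Of these, 15 had 0 counts in every library and 12 had some counts below the minimum. KCNQ1OT1, the imprinted antisense transcript within KCNQ1, was the 1 that reached 10 counts in every library, with 36, 52 and 31 counts, or 3.37, 4.55 and 3.50 CPM. Its annotated exons share 121 bases with those of KCNQ1, which had 112, 116 and 73 counts. KCNJ2-AS1, which shares 185 exon bases with KCNJ2, had 2, 11 and 4 counts. KCNRG, a regulator of KCNA channels, had 2, 0 and 0.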
